A study of Mus musculus with 16 samples.

Results

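Centromeric histone loading factors were followed in polyadenylated RNA of mouse 2-cell embryos. The set has 6 genes of the 49585 listed, found by the GENCODE symbols Oip5, Mis18a, Hjurp, Cenpa, Cenpb and Cenpc1, and it was picked because Oip5 fell in knockdown embryos. All 6 had an adjusted p in every comparison, so none was lost to the filter on low counts. The fall of Oip5 describes how the set was chosen and is no test of it.

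The knockdown group comprised 6 libraries of embryos microinjected as zygotes with what the labels call dsSuv39h2, a knockdown of Suv39h2. The LacZ control group comprised 6 libraries of embryos injected with dsLacz, named for a bacterial gene that mouse cells lack. The non-injected group comprised 4 libraries of embryos that received no injection. All embryos had DBA fathers and F1 mothers (C57BL/6J × CBA/H), grew in KSOM medium and were collected at the 2-cell stage. Libraries were made with Smart-seq2, which reads along the whole transcript. The design text gives pools of 5 embryos whereas the extraction label gives a single embryo, and a treatment label names Suv39h1 mRNA that no group label mentions. Nothing states that libraries came from separate collections, so the p-values measure the spread between these libraries, which may be partly technical.

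Centromeres are marked by CENP-A, a variant of histone H3 encoded by Cenpa. The Mis18 complex, which includes Mis18a and Oip5 (also called Mis18-beta), marks the centromere for new deposition, and the chaperone Hjurp brings CENP-A to it, as worked out in human cells. Cenpc1 encodes CENP-C, which binds CENP-A nucleosomes and carries the kinetochore, and Cenpb encodes a protein that binds a DNA motif of centromeric satellite repeats. Mouse oocytes are known for keeping CENP-A at their centromeres for long periods.

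The start region of Oip5 is shown because the gene stands head to head with Nusap1, which moved with it. Those of its complex partner Mis18a, which was not called, and of Cenpa, whose protein is the histone to be loaded, are shown beside it. Each is the RefSeq window from 250 bases before to 50 after the start site on GRCm38.p6, 5′ to 3′ on the strand of the gene. They lie at chr2:119618456-119618755 (minus strand), chr16:90727322-90727621 (minus strand) and chr5:30666636-30666935 (plus strand). Capitals mark, on either strand, CCAAT (read ATTGG when reversed), the box bound by NF-Y, and TTTGAA (read TTCAAA when reversed) or TTCGAA, forms of the cell cycle genes homology region.
Oip5: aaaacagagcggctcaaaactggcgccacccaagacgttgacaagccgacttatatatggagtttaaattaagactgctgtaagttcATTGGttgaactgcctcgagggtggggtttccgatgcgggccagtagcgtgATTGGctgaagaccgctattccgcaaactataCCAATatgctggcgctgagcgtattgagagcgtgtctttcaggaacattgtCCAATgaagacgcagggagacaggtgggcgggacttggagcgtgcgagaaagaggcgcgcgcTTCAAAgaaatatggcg
Mis18a: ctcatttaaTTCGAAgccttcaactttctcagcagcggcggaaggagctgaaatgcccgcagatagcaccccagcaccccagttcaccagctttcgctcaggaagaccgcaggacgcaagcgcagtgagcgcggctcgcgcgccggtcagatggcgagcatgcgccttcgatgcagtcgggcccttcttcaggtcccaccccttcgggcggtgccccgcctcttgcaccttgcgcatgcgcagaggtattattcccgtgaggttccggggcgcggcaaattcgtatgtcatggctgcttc
Cenpa: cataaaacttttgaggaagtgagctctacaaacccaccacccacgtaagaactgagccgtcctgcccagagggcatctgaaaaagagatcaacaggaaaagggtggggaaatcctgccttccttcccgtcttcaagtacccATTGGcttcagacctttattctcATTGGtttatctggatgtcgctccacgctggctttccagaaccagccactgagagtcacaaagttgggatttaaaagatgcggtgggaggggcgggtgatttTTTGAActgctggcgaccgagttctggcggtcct

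The Oip5 window held CCAAT 4 times and TTTGAA once, and the Cenpa window held CCAAT 2 times and TTTGAA once. The Mis18a window held neither, but held TTCGAA once, which is its own reverse complement. The window of Hjurp held both CCAAT and TTTGAA, that of Cenpc1 held CCAAT, and that of Cenpb held neither. Searched on both strands, CCAAT was in 37.4% and TTTGAA in 17.8% of 32544 promoter windows of this length, and both together were in 6.92%. CCAAT occurred at least 4 times in 1.06% of windows and TTCGAA in 1.56%. Of the E2F forms searched, TTTCCCGC (1.08% of windows) was in the Cenpb window, TTCCCGCC (2.20%) was in the Cenpc1 window, and TTTGGCGC (0.519%) was in none of the 6. The start window of Nusap1 placed by its start at 119618298 (chr2:119618048-119618347, plus strand), searched likewise, held 0 of these motifs. No window was searched for its other protein-coding start, at 119618717. The Oip5 window spans that start, and on the strand of Nusap1 all motifs marked in the Oip5 window lie upstream of it. The motifs do not overlap each other in the members' windows, and a match describes letters only.

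The targeted transcript and the identity of the samples were checked first. Suv39h2, the H3K9 methyltransferase under study, stood in knockdown at 25.9% of its LacZ control level in the authors' deposited table (log2 fold change -1.95 ± 0.28, standard error; adjusted p = 4.72e-08). All 11 markers of 2-cell embryos and all 8 maternal oocyte markers were detected, with mean normalized counts from 27.7 to 2987 and from 205 to 8077. Of 10 cumulus and granulosa markers 8 were under a mean count of 10 and the highest was 36.5, and the 6 sperm markers reached at most 7.78. The gene tables hold 1 mean per gene over all libraries, so neither a value per library nor the depth of a library can be given, and a group's level appears only as a ratio to another group. In such pooled RNA, fewer cells of a type and less RNA per cell cannot be told apart.

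The members differed widely in level. Per kilobase of merged exon, the mean normalized count over all libraries was highest for Cenpa at 487, followed by Mis18a at 168, Hjurp at 134 and Oip5 at 124. Cenpc1 followed at 35.1 and Cenpb at 3.78, so that Cenpa stood 129-fold above Cenpb on that scale. Without values per library the spread of these levels is unknown, and the order among Mis18a, Hjurp and Oip5, which lie close together, was not tested. Merged exon takes in every annotated transcript, 10 for Cenpa and 1 for Cenpb, so it can exceed the length of an mRNA. By how much it does so for each gene was not measured. Before division by length the mean normalized counts were 2854 for Cenpa, 1118 for Hjurp, 482 for Mis18a, 220 for Oip5, 198 for Cenpc1 and 18.5 for Cenpb. Cenpa ranked 296th of 33028 genes with a p-value by mean normalized count, and Cenpb ranked 12858th.

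**Figure D1:**
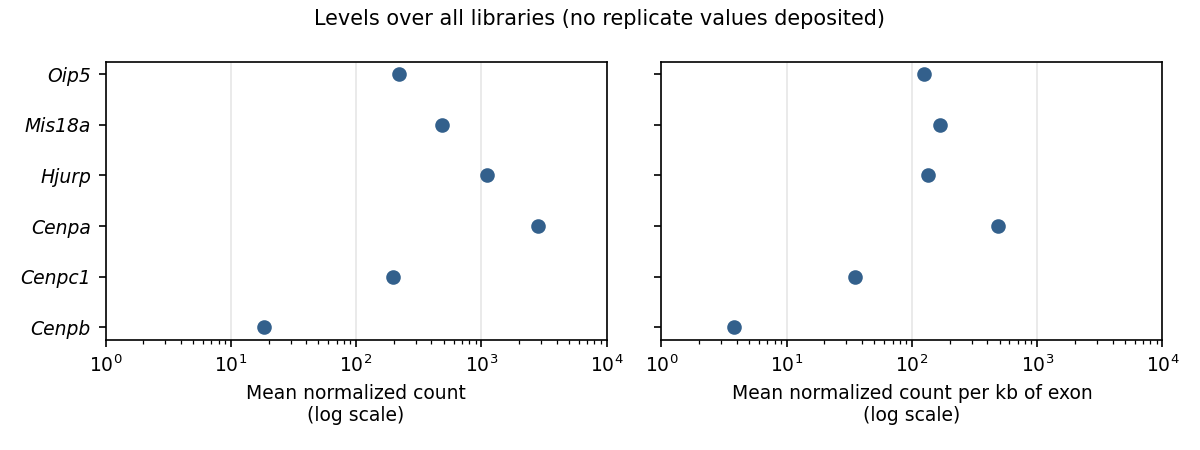
Mean normalized count of each member over all 16 libraries (left) and the same per kilobase of merged exon (right), both on log axes; points are the authors' means and have no error because values of single libraries are not used here. Cenpa is highest at 487 per kilobase, and Cenpb is lowest at 3.78.

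Between knockdown and LacZ control embryos, both injected, Oip5 fell and the other 5 members were not called. Oip5 stood in knockdown at 41.0% of its LacZ control level in the authors' deposited table (95% interval 28.0% to 60.2%; log2 fold change -1.28 ± 0.28; adjusted p = 0.0123 by DESeq2). A larger fall was seen there for 11 of 15572 genes with an adjusted p. Of all genes tested 0.899% were called in this comparison, 0.533% lower, and 0.958% of those with a mean count of at least 100 were called lower. Since the set was picked on this contrast, nothing is read from its count of 1 in 6 or from the rank of Oip5.

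Within the Mis18 complex, Mis18a had a log2 fold change of -0.40 ± 0.28 in knockdown over LacZ control (adjusted p = 0.596) in the authors' deposited table. Its 95% interval ran from -0.95 to 0.15, and its lower end overlaps that of Oip5, which ran from -1.84 to -0.73. The difference between these subunits was not tested. Of these subunits Oip5 had a called fall, while the interval of Mis18a spans 0.

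The chaperone Hjurp had a log2 fold change of -0.49 ± 0.25 in knockdown over LacZ control (adjusted p = 0.348) in the authors' deposited table. Cenpa itself had -0.37 ± 0.15 (p = 0.0129, adjusted p = 0.188) in the authors' deposited table. Genes with a mean count within 2-fold of Cenpa had a median of -0.16 in this comparison, and less that median Cenpa stood at -0.22. Cenpc1, on the binding side, had -0.44 ± 0.23 (adjusted p = 0.385) in the authors' deposited table. Cenpb was the only member with a value above 0, at 0.49 ± 0.40 (adjusted p = 0.660) in the authors' deposited table, and its interval from -0.29 to 1.27 is the widest of the set, beside its low mean count of 18.5.

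**Figure D2:**
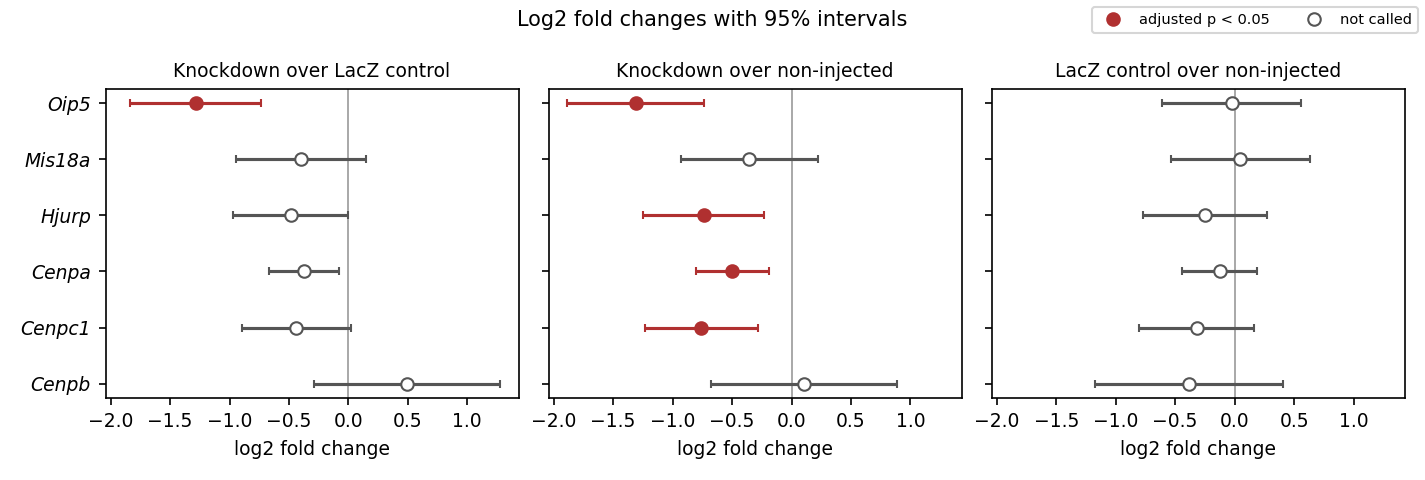
Log2 fold change of each member (rows) in the 3 comparisons (panels); points are the authors' deposited values, bars are 95% intervals, and filled red points have an adjusted p under 0.05. Oip5 is called in both knockdown comparisons at -1.28 and -1.31, Hjurp, Cenpa and Cenpc1 are called in knockdown over non-injected, and no member is called in LacZ control over non-injected.

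Between knockdown and non-injected embryos, Oip5, Hjurp, Cenpa and Cenpc1 fell, while Mis18a and Cenpb were not called. Of all genes tested 15.2% were called here, 7.41% higher and 7.76% lower, and 13.5% were lower among those with a mean count of at least 100, against 4 of the 6 members. This comparison shares the knockdown libraries with the contrast that chose the set, so the count does not stand apart from that choice. Oip5 stood in knockdown at 40.4% of its non-injected level in the authors' deposited table (95% interval 27.1% to 60.1%; log2 fold change -1.31 ± 0.29; adjusted p = 0.00142). Cenpc1 stood at 59.2% (-0.76 ± 0.24; adjusted p = 0.0226) in the authors' deposited table, and Hjurp at 59.9% (-0.74 ± 0.26; adjusted p = 0.0377). Cenpa stood at 70.8% (-0.50 ± 0.16; adjusted p = 0.0188) in the authors' deposited table. The members that were not called had -0.35 ± 0.29 (Mis18a, adjusted p = 0.550) and 0.11 ± 0.40 (Cenpb, adjusted p = 0.984) in the authors' deposited table.

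Some markers of oocytes and of 2-cell embryos rose in the same comparison. Of 8 maternal oocyte markers 5 were called higher and none lower in knockdown over non-injected (median log2 fold change 0.74, summed mean count 20145). Of 11 markers of 2-cell embryos 5 were called higher and none lower (median 0.50, summed mean count 7831). The fold change was below 0 for 1 of the 8 and for 4 of the 11, and 7.41% of all genes tested were called higher there. In knockdown over LacZ control DESeq2 called 0 of either list (unadjusted p under 0.05 for 1 of each, both higher), with medians of 0.18 and -0.03. At that unadjusted cut 1027 of 15572 genes tested were higher. In LacZ control over non-injected 2 of the 11 markers of 2-cell embryos rose, Tcstv1 and Tcstv3 (unadjusted p under 0.05 for 5, all higher, median 0.56). DESeq2 called 0 of the 8 oocyte markers there (unadjusted p under 0.05 for 5, all higher, median 0.53). Of 29288 genes tested in that comparison, 155 were called higher and 1297 were higher at the unadjusted cut. The part of these markers in the members' values was not tested. The call of Hjurp ended (adjusted p = 0.0763) when p-values were adjusted over every gene with a p-value.

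Between LacZ control and non-injected embryos DESeq2 called 0 of the 6 members, and 0 of them had an unadjusted p under 0.05. Of all genes tested 0.792% were called in this comparison. At an unadjusted p under 0.05, 1297 of 29288 genes were higher and 866 lower. Oip5 stood in LacZ control at 98.3% of its non-injected level in the authors' deposited table (95% interval 65.6% to 147%; adjusted p = 0.998). Mis18a had a log2 fold change of 0.05 ± 0.30 and Cenpa of -0.12 ± 0.16 in the authors' deposited table, each with an adjusted p of 0.998. Hjurp (-0.25 ± 0.27), Cenpc1 (-0.32 ± 0.25) and Cenpb (-0.39 ± 0.40) lay lower in the authors' deposited table, with adjusted p of 0.998, 0.966 and 0.998.

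The authors' fold change of knockdown over non-injected is the sum of the other comparisons, so each member's total can be split. For Oip5 98.1% of the log2 difference between knockdown and non-injected lay between knockdown and LacZ control. For Cenpa that share was 75.0%, for Hjurp 65.9% and for Cenpc1 57.7%. For Mis18a and Cenpb the parts had opposite signs, so no share is given. The shares carry the errors of both fold changes, whose intervals span 0 for Hjurp and Cenpc1 in the separate comparisons, so their order was not tested. The share of Oip5 is computed from the fall that chose the set, so nothing is read from its size.

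**Figure D3:**
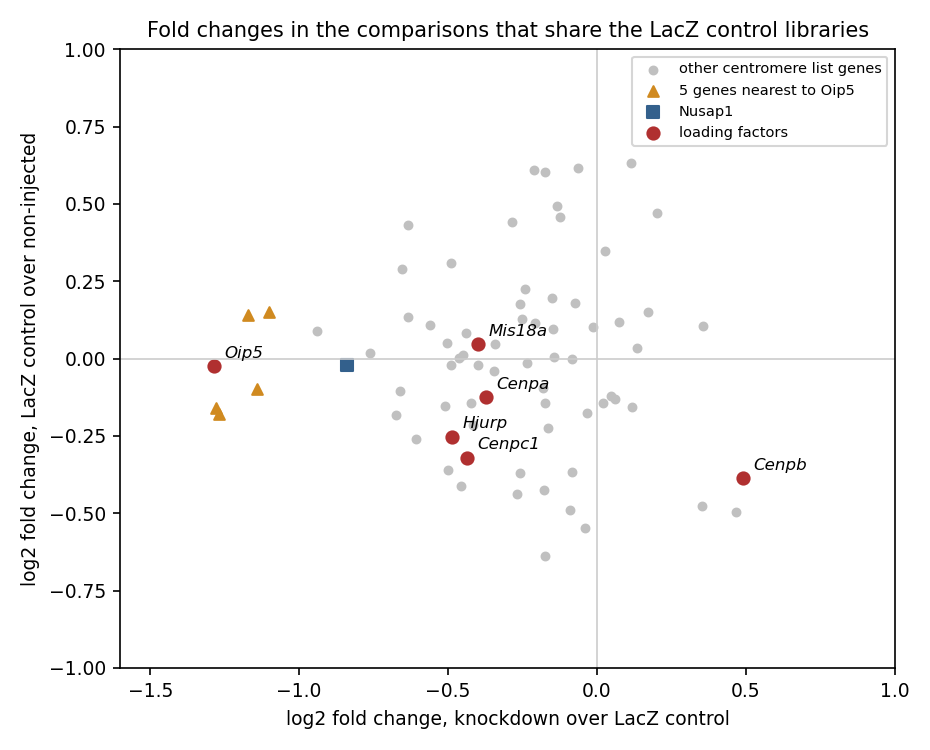
Log2 fold change in knockdown over LacZ control (x) against LacZ control over non-injected (y), comparisons that share the LacZ control libraries; red circles are the members, the blue square is Nusap1, triangles are the 5 genes nearest to Oip5, and grey circles are the other centromere list genes. Oip5 lies far left at -1.28 and near 0 on the y axis, and Cenpb alone among the members lies right of 0.

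Oip5 (ENSMUSG00000072980.3) is a protein-coding gene at 119609512 to 119618469 on the minus strand of chromosome 2 (GRCm38), and its 5 merged exons cover 1778 bases. Its exon bases 119618298 to 119618469 are shared with Nusap1 on the plus strand, 172 bases or 9.67% of the exon length of Oip5. The other protein-coding start of Nusap1 in GENCODE, at 119618717, lies 248 bases upstream of the GENCODE start of Oip5 at 119618469. It falls within the window printed above, which is placed by the RefSeq start of Oip5, a different position. Nusap1, a microtubule-bundling protein of the mitotic spindle, fell in the same comparisons. In knockdown over LacZ control its log2 fold change was -0.84 ± 0.22 (adjusted p = 0.0285) in the authors' deposited table, and in knockdown over non-injected it was -0.86 ± 0.23 (adjusted p = 0.00482). In LacZ control over non-injected it was -0.02 ± 0.23 (adjusted p = 0.998) in the authors' deposited table. Smart-seq2 does not record strand, so reads from the shared bases cannot be assigned to either gene. The mean normalized count of Nusap1 was 1439.6, or 355 per kilobase of exon, against 220 and 124 per kilobase for Oip5.

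Of the other members, Cenpb (chromosome 2, 131175182 to 131180067) shares 20 exon bases with Spef1 on its own strand, and the exons of the remaining 4 share bases with no other gene in the tables. Spef1 had a log2 fold change of 0.97 ± 0.38 in knockdown over LacZ control (adjusted p = 0.217) in the authors' deposited table. The remaining members lie at 90719312 to 90727404 on chromosome 16 (Mis18a), 88262471 to 88277633 on chromosome 1 (Hjurp), and 30666777 to 30674830 and 86012024 to 86065583 on chromosome 5 (Cenpa and Cenpc1). All 6 are annotated as protein-coding.

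The genes nearest to Oip5 in both fold changes were sought among 4108 genes with a mean count within 2-fold of its own. Likeness was the Euclidean distance over 2 log2 fold changes, those of knockdown over LacZ control and of LacZ control over non-injected. The nearest was Zfp977 (distance 0.134), followed by Actr6 (0.158), Znrd1 (0.165), Naxe (0.201) and Gadd45a (0.254). Their log2 fold changes in knockdown over LacZ control ran from -1.28 to -1.10 in the authors' deposited table, and all but Znrd1 (adjusted p = 0.150) were called. These genes were chosen by that same fold change, so the values and calls describe the choice and are no test. Of the 4108 genes 1 had a larger fall than Oip5 in knockdown over LacZ control, and 14 had a larger fall in knockdown over non-injected. The set was picked because Oip5 fell, and these comparisons share the knockdown libraries, so nothing is read from its rank.

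Partners of CENP-A deposition outside the set included chaperones, remodellers and cell cycle kinases. Of 17 such genes, 2 fell in knockdown over LacZ control and none rose, with a median log2 fold change of -0.26, where 0.533% of all genes and 0.958% of those with a mean count of at least 100 were called lower. Smarca5, the ATPase of ISWI remodellers, had -0.94 ± 0.24 (adjusted p = 0.0212) in the authors' deposited table. Cdk1, the kinase that drives mitosis and in human cells holds back CENP-A loading until it ends, had -0.76 ± 0.21 (adjusted p = 0.0410) in the authors' deposited table. With adjustment over every gene with a p-value, Smarca5 alone remained called. In knockdown over non-injected 4 of the 17 fell and none rose (median -0.42), where 7.76% of all genes and 13.5% of those with a mean count of at least 100 were called lower. Smarca5 and Cdk1 were called there, as were Racgap1 (-0.71 ± 0.19, adjusted p = 0.00641) and Ect2 (-0.57 ± 0.21, adjusted p = 0.0438), both of which act in cytokinesis, in the authors' deposited table. Ect2 was not called there with adjustment over every gene with a p-value. The medians of all genes tested were 0.02 in knockdown over LacZ control and 0.05 in knockdown over non-injected. They were lower among genes with a mean count within 2-fold of that of Mis18a, Hjurp or Cenpa, from -0.16 to -0.10 in knockdown over LacZ control and from -0.18 to -0.08 in knockdown over non-injected.

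The constitutive centromere network, the proteins that sit on CENP-A chromatin with CENP-C, had genes called in both directions in knockdown over non-injected, 3 of 15, where 15.2% of all genes were called. DESeq2 called 0 of its 15 genes in knockdown over LacZ control, with an unadjusted p under 0.05 for 4, all lower, and a median of -0.17. Of 15572 genes tested there, 1257 were lower at that unadjusted cut. In knockdown over non-injected Cenpi (-0.81 ± 0.24, adjusted p = 0.0113) and Cenpt (-0.63 ± 0.22, adjusted p = 0.0349) fell and Cenpn, a direct reader of CENP-A nucleosomes, rose (0.75 ± 0.23, adjusted p = 0.0111) in the authors' deposited table. The median of the 15 was -0.04, and Cenpt was not called with adjustment over every gene with a p-value.

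Of 12 outer kinetochore genes, DESeq2 called 0 in knockdown over LacZ control (unadjusted p under 0.05 for 3, all lower, median -0.16). At that unadjusted cut 1257 of 15572 genes tested were lower. In knockdown over non-injected Cenpf (-0.87 ± 0.23, adjusted p = 0.00387) and the motor gene Cenpe (-0.63 ± 0.23, adjusted p = 0.0466) fell and Nuf2 of the Ndc80 complex rose (0.67 ± 0.22, adjusted p = 0.0236) in the authors' deposited table. Cenpe was not called with adjustment over every gene with a p-value. Of all genes tested in knockdown over non-injected 15.2% were called, 7.41% higher and 7.76% lower. Of 9 genes of the chromosomal passenger complex, shugoshins and their kinases, 1 fell in knockdown over LacZ control. In that comparison 0.533% of all genes and 0.958% of those with a mean count of at least 100 were called lower. The gene that fell was Sgo2a, a protector of centromeric cohesion, at -0.67 ± 0.18 (adjusted p = 0.0268) in the authors' deposited table. Sgo2a shares 35.0% of its exon bases with Kctd18 on the opposite strand. In knockdown over non-injected Sgo2a (-0.86 ± 0.19, adjusted p = 3.66e-04), Incenp (-0.87 ± 0.27, adjusted p = 0.0206) and Cdca8 (-0.66 ± 0.19, adjusted p = 0.0103) fell in the authors' deposited table. These were 3 of the 9, where 7.76% of all genes and 13.5% of those with a mean count of at least 100 were called lower.

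Among 11 other H3 chaperones, set beside Hjurp, DESeq2 called 0 in knockdown over LacZ control (unadjusted p under 0.05 for 2, both lower, median -0.17). At that unadjusted cut 1257 of 15572 genes tested were lower. In knockdown over non-injected Hira, the chaperone of H3.3, fell (-0.86 ± 0.25, adjusted p = 0.00820) in the authors' deposited table, and the median was -0.29. It was 1 of 11, where 7.76% of all genes tested were called lower, so nothing is read from that count. Hira shares 44.7% of its exon bases with Gm28539 on its own strand. In LacZ control over non-injected DESeq2 called 0 genes of these 5 centromere and chaperone lists. At an unadjusted p under 0.05 there were 1 lower deposition partner, 4 higher and 1 lower gene of the centromere network and 2 higher genes of the outer kinetochore. Of 29288 genes tested in that comparison 1297 were higher and 866 lower at that cut, so nothing is read from these counts.

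**Figure D4:**
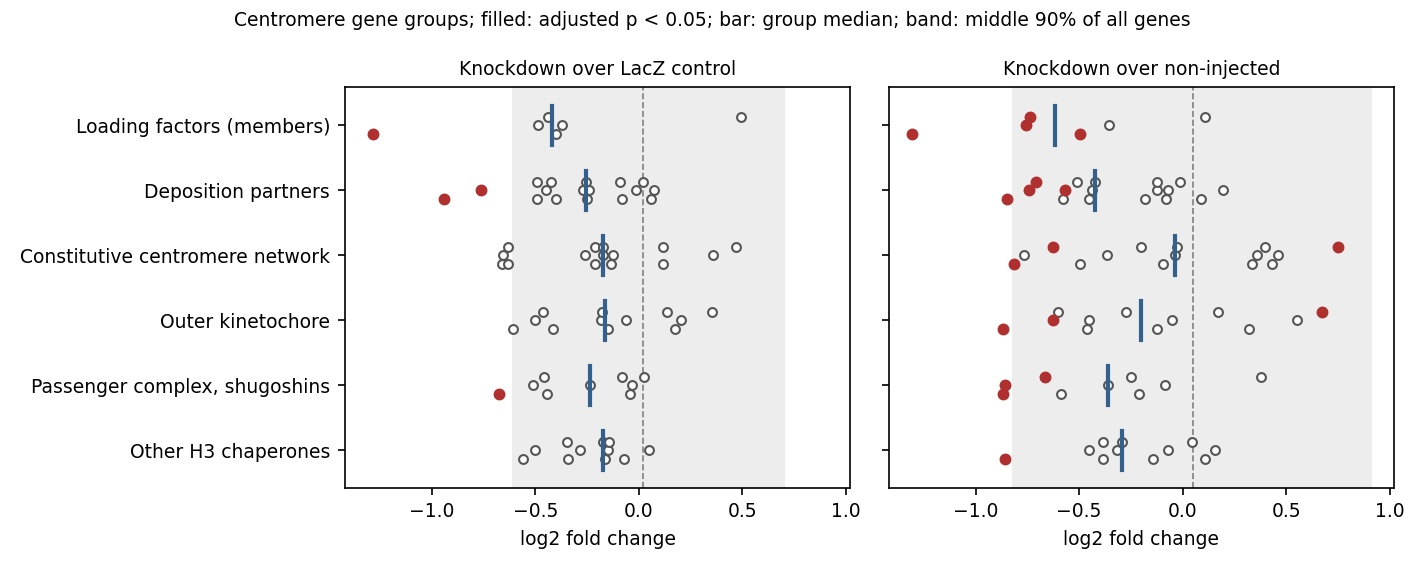
Log2 fold changes of the members and of 5 lists of related genes in knockdown over LacZ control (left) and knockdown over non-injected (right); each point is a gene, filled red points have an adjusted p under 0.05, blue bars are list medians, the dashed line is the median of all genes tested and the grey band holds their middle 90%. Medians are -0.42 and -0.62 for the members, and Oip5 lies left of the band in both panels.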

How the data were processed

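RNA of 2-cell embryos was measured in 3 groups of libraries, taken from the sample titles. Each gene table gives 1 comparison made by the authors. The submitters' processing notes name STAR 2.5.2b, SAMtools, HTSeq 0.9.1, DESeq2 1.18.1 and the build GRCm38.p5. Fold changes of genes were read as the group named first in a table's name over the other, and only these names of the authors' tables show that RUVSeq and fold change shrinkage were applied. The handling of strand and of overlapping genes during counting is not given in the sources used.

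Per the file headers, the deposited values are a mean normalized count over libraries (a signal after division by size factors), the log2 fold change and its error, a Wald statistic (a score), the p-value and the adjusted p. The Benjamini-Hochberg adjustment, recomputed over the genes with an adjusted p, gave the authors' values back to within 1.84e-05. No refit was possible: 0 columns hold single libraries, so depth per sample is unknown and no count test was run. Intervals of 95% are the deposited fold change ± 1.96 standard errors of the shrunken values. Identifiers were matched, version dropped, to GENCODE vM21 (49326 of 49585; 99.5%), which also gave merged exon lengths. Python 3.11.15 with pandas 2.3.3 was used, and the adjustment and the motif search were tested on simulated data.

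The members, lists, nearest-gene rule and tests were chosen with earlier results of these data known. Named were the 6 members, Suv39h2, genes sharing exon bases with a member, every list gene called in knockdown over LacZ control, up to 6 per list called in the other comparisons, and the 5 genes nearest to Oip5. A further gene the rule names is not reported here.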

Additional observations from a re-analysis of the deposited data

How the results depend on the processing

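Between knockdown and LacZ control the count of 1 called member was kept with adjustment over every p-value or over genes with a mean count of at least 10 or 100, and with a threshold of 0.1. It was 0 with a threshold of 0.01, 0 with Benjamini-Yekutieli adjustment (Oip5 adjusted p = 0.125), and 0 of 5 members without genes that overlap exons on the opposite strand, which leaves out Oip5 by construction. Between knockdown and non-injected the count of 4 was 1 with a threshold of 0.01 and 1 with Benjamini-Yekutieli, Oip5 in both cases. Both are stricter by construction. Hjurp was not called with adjustment over every p-value (0.0763). Less the median of genes of like mean count, Mis18a in knockdown over non-injected stood at -0.22 (main value -0.35) and Cenpa in knockdown over LacZ control at -0.22 (main value -0.37). Cenpb in knockdown over non-injected, not called, stood at -0.08 against genes of like mean count. No paired analysis was possible because the tables hold no values of single libraries, and leaving out replicates was not run for the same reason.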

Other observations

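The satellite repeat listed as SYNREP_MM carries a fold change and a test statistic that do not match. In the authors' deposited table of repeats for knockdown and LacZ control its log2 fold change was -0.64 ± 0.30, while the Wald statistic was -0.26 (p = 0.796). For LacZ control and non-injected it was 0.51 ± 0.30 in the authors' deposited table, with a statistic of the other sign, -0.81 (p = 0.416). Among genes with an adjusted p, the sign of the shrunken fold change and of the statistic differed for 426 in knockdown over LacZ control, none of them called, and for 302 in knockdown over non-injected, none of them called. In LacZ control over non-injected the signs differed for 1500 genes, of which 1 was called. The major satellite GSAT_MM stood at -1.14 ± 0.28 in the authors' deposited table for knockdown and LacZ control (adjusted p = 0.0182). For knockdown and non-injected it stood at -0.92 ± 0.30 (adjusted p = 0.0231) in the authors' deposited table. For LacZ control and non-injected it stood at 0.37 ± 0.20 (adjusted p = 0.548) in the authors' deposited table. No header gives the direction of these fold changes, and the group named later in a table's name was taken to be on top, the reverse of the gene tables.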
